A study of Sus scrofa with 6 samples.

Results

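S100A4, PRRX1, ACTA2 and CNN1 are 4 genes of fibroblast identity and of the contractile cytoskeleton, and their values were followed over 6 pig cell samples. All probe sets whose annotation gave exactly 1 of these symbols were taken. That was 1 probe set per gene, 4 of the 23999 probe sets that are not array controls, and 4 of the 6765 gene symbols on the array. S100A4, also called fibroblast-specific protein, is a small calcium-binding protein common in fibroblasts and in other motile mesenchymal cells. PRRX1 is a homeobox transcription factor of limb and craniofacial mesenchyme and of connective tissue fibroblasts. ACTA2 is the smooth muscle actin that is built into stress fibres when fibroblasts turn into myofibroblasts, and CNN1, calponin, binds actin and tropomyosin in the same filaments. When fibroblasts are reprogrammed to induced pluripotent stem (iPS) cells, mesenchymal and contractile genes are known to be switched off early, as the cells become epithelial. In mouse and human cells contractile genes are switched on by serum response factor with its partners of the myocardin family, and by TGF-beta signalling.

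The iPS samples were 4 pig lines, separated in the labels by stage-specific embryonic antigens (SSEA), surface glycans used as markers of pluripotent cells. SSEA1 was labelled present on PS24 together with SSEA3 and SSEA4, and on 30AC5 alone. The other lines, iPF4-2 and iPSCs-w, carried SSEA3 and SSEA4. They were set beside 2 somatic samples: porcine embryo fibroblasts (PEF) and stem cells from amniotic fluid (PAFSC). All cells were grown in DMEM with serum, and the iPS lines were kept on growth-arrested mouse embryo fibroblasts, whose part in the values was not tested. Reprogramming factors, parent cells and whether a line is 1 clone are not stated in the labels. Lines made by the submitting laboratory were compared with lines from elsewhere, without a label that tells them apart.

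Total RNA of each sample was hybridised to 1 Affymetrix Pig Genome Array. The deposited values are relative log2 values with their own zero for each probe set. Differences between arrays can therefore be read within a gene, and levels cannot be compared between genes. Each sample is 1 array, nothing says that samples of a group are repeated cultures, and the limma p-values measure only the spread between these samples, which may be partly technical. The number of arrays limits the precision. In bulk samples fewer cells of a type and less RNA per cell cannot be told apart.

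The PAFSC array stood apart from the other 5. Its probe sets had an SD of 2.01, against 0.610 to 0.729 on the iPS arrays and 0.808 on the PEF array. Its median was 0.70, while the other arrays had medians between -0.06 and 0.05. Values below -3 numbered 2064 on it and 29 to 125 on the others. The control genes GAPDH, actin and EF1A had a mean 5′ minus 3′ difference of -1.90 on the PS24 array and 1.90 on the PAFSC array, and of -0.03 to 0.19 on the other 4. The part of these properties in the results was not tested, and the results are given with and without PAFSC.

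S100A4 (NCBI gene 100156358) was -0.62 in PS24 and 0.00 in 30AC5, and 0.58 in iPF4-2 and -0.76 in iPSCs-w, against 5.23 in PEF and 5.19 in PAFSC. The 4 iPS lines lay close together, at -0.20 ± 0.62 (SD, n = 4), and the lowest somatic sample lay 4.61 above the highest iPS line. With CNN1 it had the narrowest range of the 4 genes among the iPS lines, 1.34. From low to high the order was iPSCs-w, PS24, 30AC5, iPF4-2, PAFSC and PEF. The steps between iPSCs-w and PS24 and between PAFSC and PEF were smaller than the residual SD of 0.534.

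PRRX1 (NCBI gene 100738910) was -0.89 in PS24 and -0.62 in 30AC5, and -3.77 in iPF4-2 and -4.99 in iPSCs-w, against 3.02 in PEF and 2.92 in PAFSC. All 4 lines lay below both somatic samples, but they formed a higher and a lower pair that match the marker classes. The iPS mean was -2.57 ± 2.15 (SD, n = 4), and the gap to the lowest somatic sample was 3.54. The residual SD of 1.86 was larger than the steps between iPSCs-w and iPF4-2, between PS24 and 30AC5 and between PAFSC and PEF. It was smaller than the step of 2.88 between iPF4-2 and PS24. This SD comes from the iPS against somatic fit, so it contains that same step between the pairs of lines.

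ACTA2 (NCBI gene 733615) was -5.11 in PS24 and -2.77 in 30AC5, and -0.33 in iPF4-2 and -4.83 in iPSCs-w, against 2.72 in PEF and 1.74 in PAFSC. It had the widest range among the iPS lines of the 4 genes, 4.78, and the lines did not sort by surface marker: PS24 and iPSCs-w were low and iPF4-2 was high. The iPS mean was -3.26 ± 2.21 (SD, n = 4). Among all probe sets of an array, ACTA2 lay at the 98.6th percentile in PEF but only at the 74.8th in PAFSC. The gap between iPF4-2 and the lowest somatic sample was 2.07, the smallest of the 4 genes and close to the residual SD of 1.95. Steps under that SD separated PS24 from iPSCs-w and PAFSC from PEF. Actins are close in sequence, so the share of this signal that comes from other actins is uncertain and was not tested.

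CNN1 (NCBI gene 396911) was -2.61 in PS24 and -1.27 in 30AC5, and -1.68 in iPF4-2 and -2.42 in iPSCs-w, against 2.12 in PEF and 3.49 in PAFSC. The iPS lines were again close together, at -1.99 ± 0.63 (SD, n = 4), with a gap of 3.39 to PEF, the lower somatic sample. In the values as deposited CNN1 was the 1 gene of the 4 that was higher in PAFSC than in PEF. PS24 and iPSCs-w, and iPF4-2 and 30AC5, differed by less than the residual SD of 0.729.

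**Figure D1:**
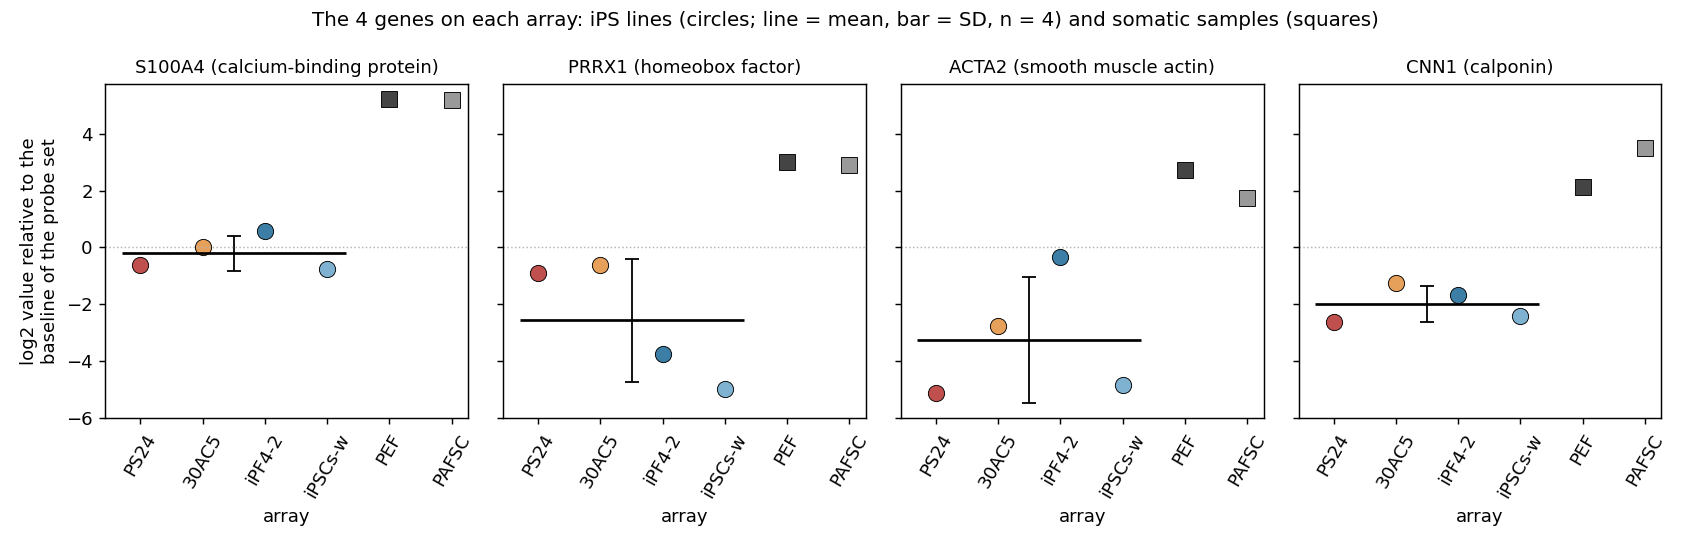
Relative log2 value (y axis) of S100A4, PRRX1, ACTA2 and CNN1 on each array (x axis), with iPS lines as circles, their mean as a line and their SD as a bar (n = 4), and somatic samples as squares. Each iPS line lies below both somatic samples in every panel, with a spread of 0.62 to 0.63 for S100A4 and CNN1 and of 2.15 to 2.21 for PRRX1 and ACTA2.

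The comparison of iPS lines with somatic cells asks how far these genes lie from their values in the somatic samples. The parent cells of the lines are not stated, so a change on reprogramming was not measured. Each of the 4 genes was lower in all 4 iPS lines than in both somatic samples, a pattern that 9.99% of all probe sets showed. S100A4 was lower by 5.41 on the log2 scale (SE 0.54, 95% interval -6.65 to -4.18, limma adjusted p = 0.0300). It was the 1 of the 4 genes past the threshold of 0.05, where limma called 0.0167% of all probe sets lower, 4 of 23999, and 0.025% in either direction.

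The other 3 genes had differences of like size and did not pass. PRRX1 differed by -5.53 (SE 1.20, 95% interval -8.28 to -2.78, limma adjusted p = 0.184). ACTA2 differed by -5.49 (SE 1.25, 95% interval -8.35 to -2.63, limma adjusted p = 0.193). CNN1, with a smaller difference but a narrower spread, stood at -4.80 (SE 0.62, 95% interval -6.21 to -3.39, limma adjusted p = 0.0791). With a floor at the 25th percentile of the values the differences were smaller, -5.18 for S100A4, -3.18 for PRRX1, -2.44 for ACTA2 and -3.02 for CNN1.

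By size the 4 genes were near the bottom of the array, but they were chosen with earlier results of these data known. Ranked from the most negative of the 23999 differences, PRRX1 was at place 10, ACTA2 at 11, S100A4 at 13 and CNN1 at 24. A mean lower by 4 or more was found for 51 probe sets, 0.213% of all. An exact two-sided permutation test of the absolute difference over the 15 splits of 4 against 2 arrays gave p = 0.0667 for each gene (0.133 with the one-sided p doubled). That is the smallest p this design allows. The call of S100A4 rested on all 4 iPS lines. It was lost when any of them was left out (limma adjusted p = 0.0767 without iPF4-2 and up to 0.216 without PS24), while the difference stayed between -5.67 and -5.23. It was also lost after quantile normalization (limma adjusted p = 0.146) and, in all, in 10 of 15 alternatives.

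Set against PEF alone, without the PAFSC array, the 4 genes ranked between place 31 (ACTA2) and place 148 (CNN1) from the most negative difference. S100A4 differed by -5.43 (SE 0.57, limma adjusted p = 0.0351), and 0.513% of probe sets were called lower in this fit. CNN1 differed by -4.12 (SE 0.58, limma adjusted p = 0.0698), ACTA2 by -5.98 (SE 1.87, limma adjusted p = 0.304) and PRRX1 by -5.58 (SE 1.81, limma adjusted p = 0.321). The lone somatic sample is assumed here to vary like the iPS lines. All 4 genes were below PEF in every iPS line, as were 19.1% of all probe sets. A mean lower than PEF by 4 or more was found for 0.638%.

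The distance from PEF differed from line to line. For S100A4 it ran from -4.65 in iPF4-2 to -5.99 in iPSCs-w, and for CNN1 from -3.39 in 30AC5 to -4.73 in PS24. For PRRX1 it was -3.90 in PS24 and -3.64 in 30AC5, and -6.78 in iPF4-2 and -8.00 in iPSCs-w. For ACTA2 it was -7.83 in PS24 and -5.49 in 30AC5, and -3.05 in iPF4-2 and -7.55 in iPSCs-w. The line nearest to PEF was thus iPF4-2 for S100A4 and ACTA2 and 30AC5 for PRRX1 and CNN1, and iPSCs-w or PS24 was farthest for each gene.

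Set against PAFSC alone, the limma adjusted p was 0.0019 for S100A4 and CNN1, 0.0458 for PRRX1 and 0.0654 for ACTA2. In that fit 59.6% of all probe sets were called, so a call in it does not set the 4 genes apart.

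**Figure D2:**
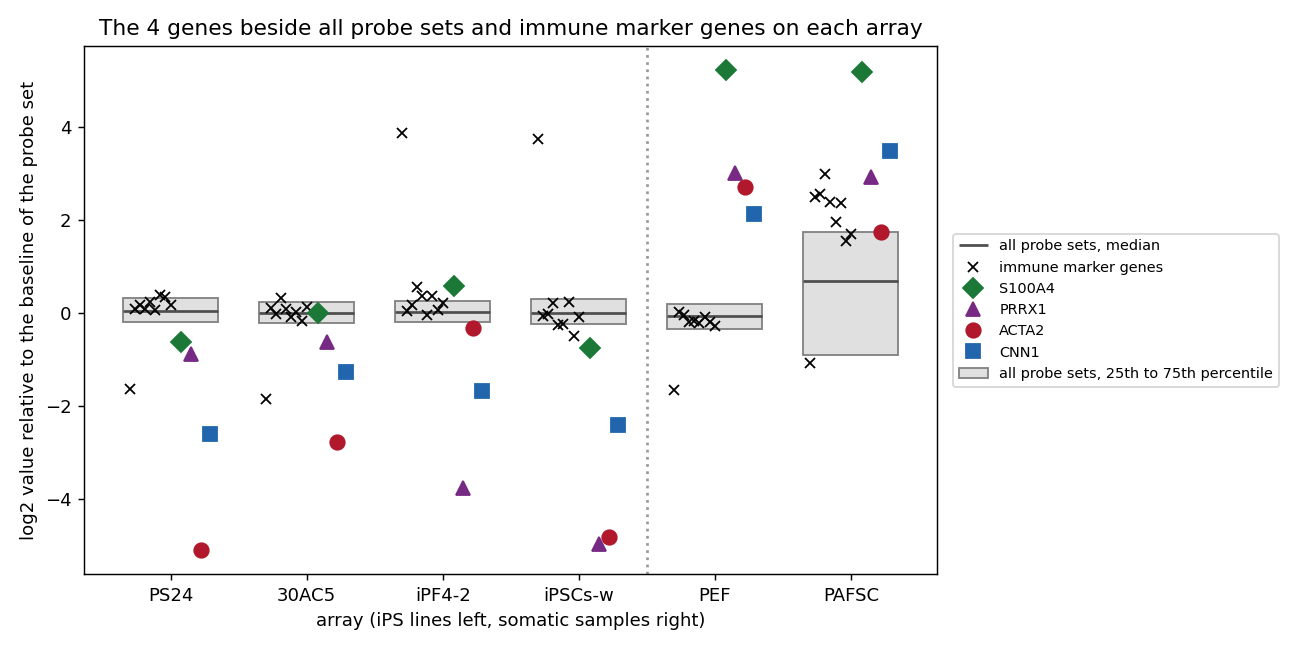
Relative log2 values (y axis) on each array (x axis): S100A4, PRRX1, ACTA2 and CNN1 as coloured symbols, 9 immune marker genes as crosses, and all probe sets as a box from the 25th to the 75th percentile with the median as a line. The PAFSC box is wider than the others, and 8 of the 9 immune genes lie between 1.55 and 2.99 on it. Each gene has its own zero, so heights are read across arrays within a gene and not between genes.

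PEF and PAFSC are 1 array each, so they were compared without a test. PEF minus PAFSC was 0.04 for S100A4, 0.10 for PRRX1, 0.98 for ACTA2 and -1.36 for CNN1. With each array's median subtracted the difference was 0.80 for S100A4 and -0.61 for CNN1, and after quantile normalization it was -0.30 for S100A4. The sign for S100A4 therefore depends on the scaling of the PAFSC array.

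The labels also set lines with SSEA1 (PS24 and 30AC5) apart from iPF4-2 and iPSCs-w, which carry SSEA3 and SSEA4 only. PRRX1 was the 1 of the 4 genes whose classes did not overlap, with means of -0.76 in the SSEA1-labelled lines and -4.38 in the SSEA3/SSEA4-only lines. Of all probe sets 41.2% did not overlap in either direction, and 21% did not overlap with the SSEA1-labelled lines higher. The PRRX1 difference of 3.62 (SE 0.67, 95% interval 2.06 to 5.18) did not pass (limma adjusted p = 0.398). It was the 84th highest of 23999 differences, and 0.617% of probe sets were higher by 3 or more. With only the 4 iPS lines in the fit the limma adjusted p was 0.102, and after quantile normalization the difference was 3.50 and passed (limma adjusted p = 0.0381), where 0.375% of all probe sets were called. Without PS24, the array with the low 5′ signal, the difference was 3.75, and leaving out each of the other arrays gave 3.01 to 4.23. With a floor at the 25th percentile, which sets nearly all low values equal, it was 0.0043 (limma adjusted p = 1.00).

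The other 3 genes differed little or irregularly between the marker classes. S100A4 averaged -0.31 in the SSEA1-labelled and -0.09 in the SSEA3/SSEA4-only lines, a difference of -0.22 (SE 0.70, 95% interval -1.85 to 1.41). CNN1 averaged -1.94 and -2.05 in the same order, a difference of 0.11 (SE 0.79, 95% interval -1.72 to 1.95). ACTA2 averaged -3.94 in the SSEA1-labelled and -2.58 in the SSEA3/SSEA4-only lines, a difference of -1.36 (SE 1.44, 95% interval -4.71 to 1.99). With 2 lines a class these intervals leave room for differences of more than 1 log2 unit in either direction. Over all probe sets limma called 0 of 23999 in this comparison (0%), with 681 (2.84%) at an unadjusted p under 0.05.

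**Figure D3:**
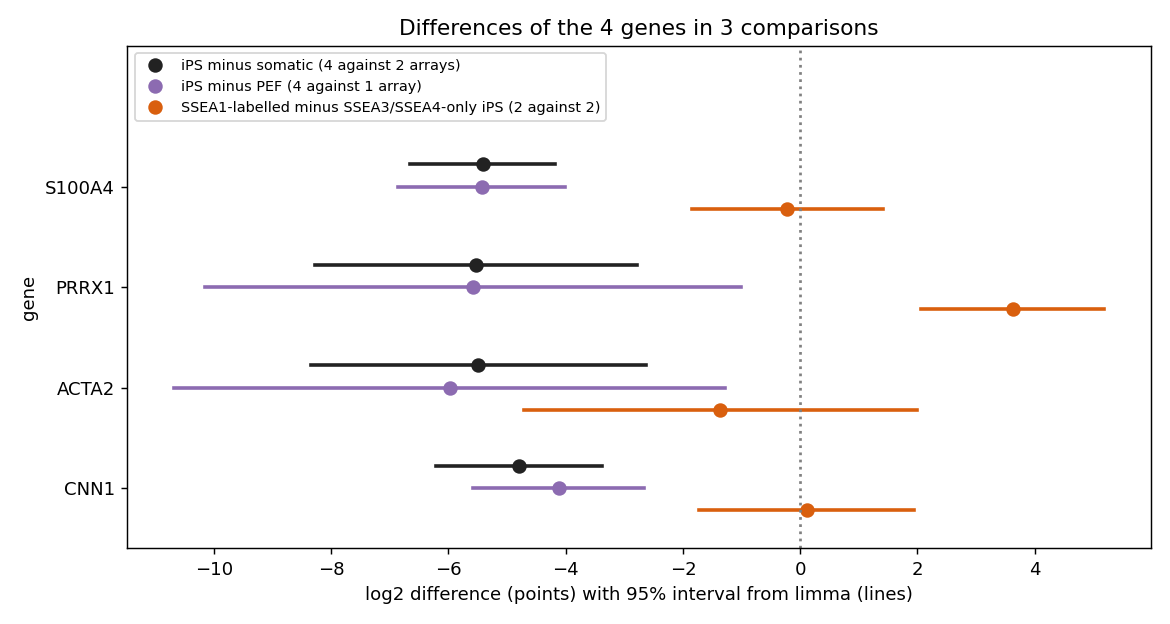
Log2 differences (x axis; points) with 95% intervals from limma (lines) for the 4 genes (y axis) between iPS lines and somatic samples, iPS lines and PEF, and SSEA1-labelled and SSEA3/SSEA4-only iPS lines. The iPS differences lie between -5.98 and -4.12 with intervals below 0, and in the marker comparison the PRRX1 interval alone, 2.06 to 5.18, does not include 0.

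The 4 genes did not share 1 profile over the arrays. As a root mean square distance between profiles, each set to a mean of 0, S100A4 and CNN1 were nearest, at 0.58 over the 6 arrays and 0.37 over the 4 iPS lines. PRRX1 and ACTA2 were farthest apart, at 2.34 and 2.84. Over the iPS lines PRRX1 and ACTA2 also ran in opposite order for iPF4-2, which was the highest line for ACTA2 and the next to lowest for PRRX1.

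The nearest genes were also sought among all genes other than the 4, by the same distance over the 6 arrays. Nearest to S100A4 was then THBS1, the matrix protein thrombospondin, at 0.62. TIMP3, a matrix-bound inhibitor of metalloproteinases, followed at 0.69, LOXL1, an enzyme that cross-links elastin, at 0.74 and TPM2, a tropomyosin of muscle and fibroblast filaments, at 0.88. TIMP3 was also the nearest to CNN1, at 0.31, followed among these genes by TPM2 at 0.58, the transcription factor ERG at 0.63 and EFEMP2, the matrix protein fibulin, at 0.65. TIMP3 was -0.49 in PS24 and 0.07 in 30AC5, and 0.32 in iPF4-2 and -0.30 in iPSCs-w, against 3.59 in PEF and 5.42 in PAFSC. Like CNN1 it was higher in PAFSC than in PEF and narrow among the iPS lines.

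For ACTA2 the nearest of these genes was another probe set of THBS1, at 0.82, with -5.72 in PS24 and -2.02 in 30AC5, and -0.89 in iPF4-2 and -6.10 in iPSCs-w, against 2.76 in PEF and 2.83 in PAFSC. It had the same low pair of lines, PS24 and iPSCs-w, as ACTA2. GUCY1B3, a subunit of the nitric oxide receptor, followed at 1.17, the distance at which S100A4 also stood, CDH11, a mesenchymal cadherin, at 1.23 and ACTG2, the enteric smooth muscle actin, at 1.24. For PRRX1 the nearest were farther: VLDLR, a lipoprotein receptor, stood at 1.28, SDC2, a cell surface proteoglycan, at 1.30, LOXL1 at 1.31 and EFEMP2 at 1.33. With Pearson correlation as the measure, 0 of the 4 genes named for S100A4 and for PRRX1 were named again, 2 for ACTA2 and 1 for CNN1. All these genes share the same 6 arrays and the step between somatic and iPS samples.

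CNN1 and ACTA2 belong to the contractile apparatus of actins, tropomyosins, calponins and myosins, of which 27 of 36 listed genes were measured. The iPS mean was below the somatic mean for 21 of the 27, and 14 were below both somatic samples in every line, against 52.4% and 10.9% of all 6765 genes. Against PEF alone 25 were lower, and 22 were below PEF in every line, against 38.3% and 20.3% of all genes. The median difference was -1.24 against both somatic samples and -1.53 against PEF, where all genes had medians of -0.08 and 0.15. Without ACTA2 and CNN1 the median of the remaining 25 was -0.96, and -1.32 against PEF. Limma called 0 of the 27 over all probe sets, and 13 had a probe set with an unadjusted p under 0.05, against 1464 of all 6765 genes.

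TAGLN, transgelin, an actin-bundling protein of smooth muscle, was -3.97 in PS24 and -1.08 in 30AC5, and -2.17 in iPF4-2 and -4.05 in iPSCs-w, against 2.30 in PEF and 0.67 in PAFSC. As for ACTA2, PS24 and iPSCs-w were its lowest lines. TPM2 was -1.45 in PS24 and 0.09 in 30AC5, and -0.70 in iPF4-2 and -0.78 in iPSCs-w, against 2.85 in PEF and 3.94 in PAFSC (median of 4 probe sets). Its 30AC5 value was the highest of the lines, as for CNN1. The differences were -4.31 for TAGLN and -4.11 for TPM2, and neither passed. ACTG2 had probe sets that disagreed, with -5.00 for 1 and -0.22 for the other.

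Within the contractile list the iPS lines were not alike. Of the 27 genes, 14 were highest in 30AC5 among the iPS lines, against 22.3% of all genes. The lowest line was PS24 for 10 and iPSCs-w for 10, against 25.9% and 26.9% of all genes. Some contractile genes were higher in the iPS mean than in the somatic mean, and not all of them were low on the PAFSC array. FHL2, a LIM protein of stress fibres and heart muscle, was -5.20 in PAFSC. TPM4, a tropomyosin of nonmuscle cells, was -2.95 there as a median of 2 probe sets that disagreed. With 1 of them TPM4 was -1.06 in PAFSC and differed by -0.48, and with the other -4.84 and 1.30. FHL2 and TPM4 were below PEF in every iPS line. SYNM was -0.49 in PAFSC, above its -1.60 in PS24 and -0.78 in 30AC5, and 1.87 in iPSCs-w against 0.03 in PEF. The count of 21 lower genes became 26 after quantile normalization and 27 with spreads made equal, and stayed at 21 with array medians subtracted. The median of all differences moved from -0.34 as deposited to between -0.04 and 0.02 in these scalings.

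**Figure D4:**
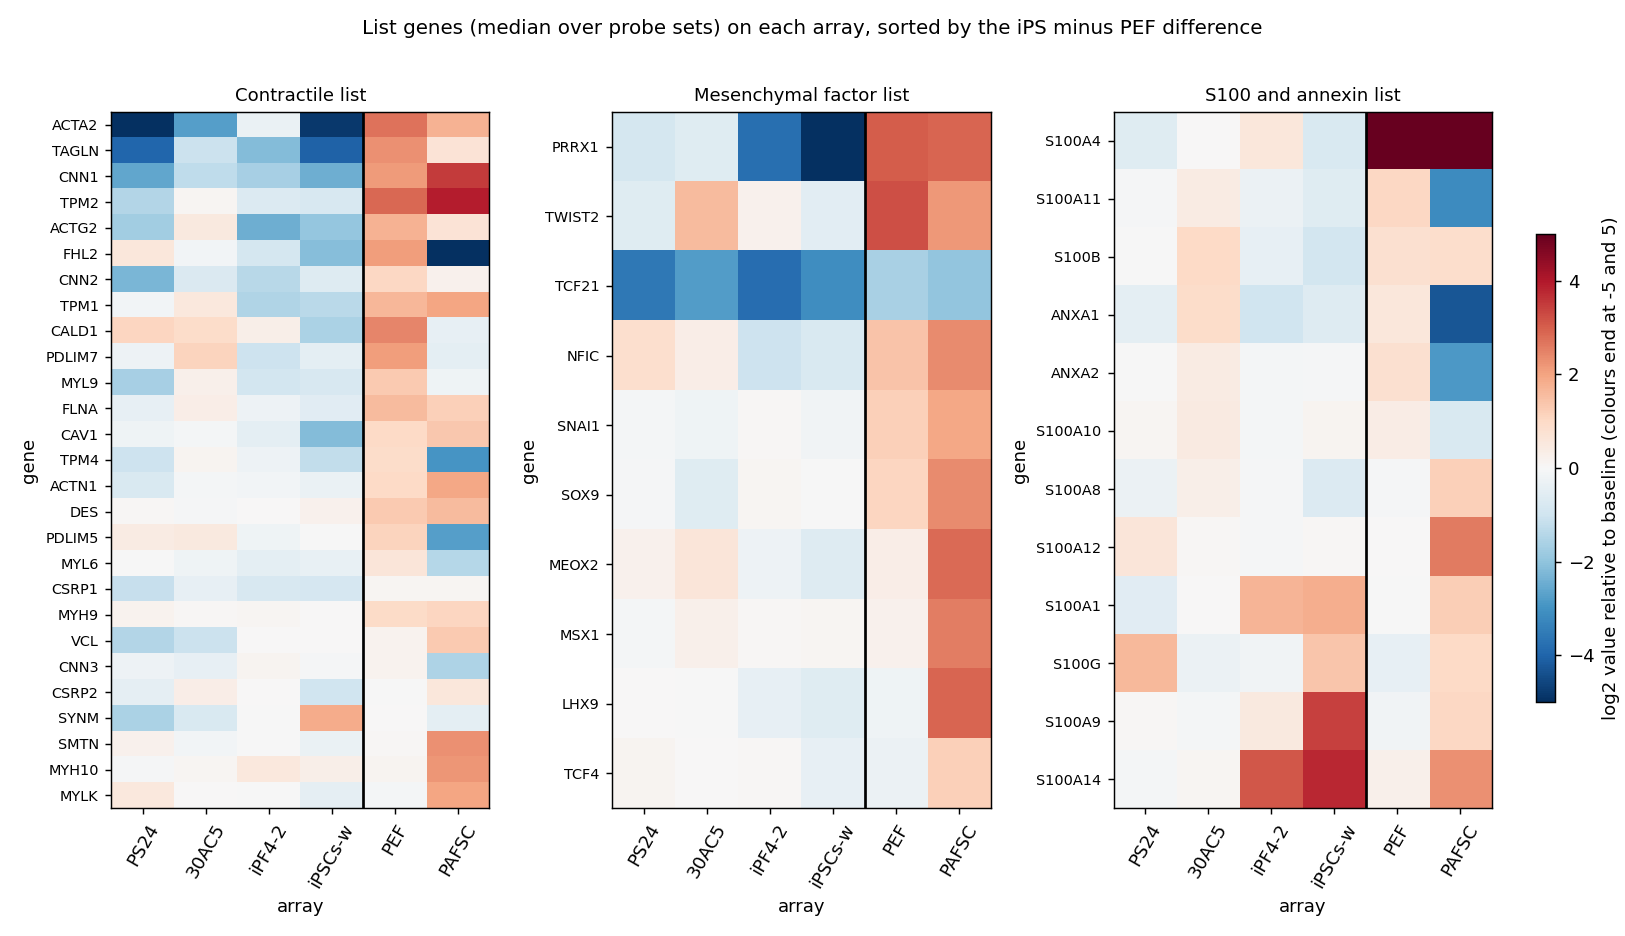
Relative log2 values (colour, ending at -5 and 5) of 27 contractile genes, 10 mesenchymal factors and 12 S100 and annexin genes on the iPS arrays (left of the line) and the somatic arrays (right), with genes sorted on the y axis by the iPS minus PEF difference. ACTA2, TAGLN and CNN1 head the contractile genes, while S100A4 is the 1 gene of its family with a value over 5 in both somatic samples.

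Among the actins themselves, 5 of 6 listed genes were measured. In every line 3 of the 5 were below both somatic samples, against 10.9% of all genes. ACTC1, the cardiac actin, was -4.42 in PS24 and -3.06 in 30AC5, and -0.52 in iPF4-2 and -2.26 in iPSCs-w, against 4.41 in PEF and -2.65 in PAFSC. As for ACTA2, iPF4-2 was its highest iPS line and PS24 its lowest, but ACTC1 was also low in PAFSC. The cytoplasmic actins that all cells use had probe sets that disagreed in PAFSC, from -4.70 to 2.21 over 6 probe sets of ACTG1 and with 0.0052 and -3.41 for ACTB. As a median over probe sets ACTG1 was between -0.13 and -0.01 in the iPS lines, against 0.24 in PEF and 1.60 in PAFSC. ACTB was between -0.15 and 0.39 in the iPS lines, against 0.28 in PEF and -1.70 in PAFSC.

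The regulators of contractile genes had a smaller median difference than the contractile genes. Of 31 listed genes 15 were measured, with a median difference of -0.84. A lower iPS mean was found for 14, and 6 were below both somatic samples in every line, against 52.4% and 10.9% of all genes. Against PEF 13 were lower and 8 were below PEF in every line, against 38.3% and 20.3% of all genes, with a median of -0.38. The count of 14 was 11 with array medians subtracted and 13 with spreads made equal. Limma called 0 of the 15. An unadjusted p under 0.05 on at least 1 probe set was found for 6, against 1464 of all 6765 genes. MYOCD, myocardin, the coactivator of smooth muscle genes, was between -0.10 and 0.30 in the iPS lines, against 0.06 in PEF and 2.37 in PAFSC. TGFB3, a TGF-beta ligand, was between -0.25 and 0.18 in the iPS lines, against 1.48 in PEF and 1.97 in PAFSC. Its 2 probe sets disagreed in PEF, with 2.76 and 0.21. CYR61, a matrix protein induced by serum and stretch, was 0.17 in PS24 and 0.98 in 30AC5, and -2.11 in iPF4-2 and -1.61 in iPSCs-w, against 2.84 in PEF and -1.28 in PAFSC.

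KLF4, a pluripotency factor that also restrains smooth muscle genes in the mouse, was lower in the iPS lines. It was -2.91 in PS24 and -0.63 in 30AC5, and -0.79 in iPF4-2 and -0.80 in iPSCs-w, against 2.12 in PEF and 2.79 in PAFSC. The difference of -3.73 did not pass (limma adjusted p = 0.160). GATA6, a factor of endoderm and of vascular smooth muscle, was 0.53 in PS24 and 0.63 in 30AC5, and 3.45 in iPF4-2 and 3.57 in iPSCs-w, against -0.32 in PEF and -1.69 in PAFSC. As deposited it was the 1 regulator with a higher iPS mean, and it stayed positive in the other scalings, and its high pair of lines was the low pair of PRRX1.

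PRRX1 was also the gene with the largest difference among the mesenchymal transcription factors, of which 10 of 37 listed were measured. All 10 had a lower iPS mean, in each of the 4 scalings, and 6 were below both somatic samples in every line. Of all genes, as deposited, 52.4% and 10.9% did so. The median difference was -1.63, and -1.27 against PEF. There 9 were lower and 6 were below PEF in every line, against 38.3% and 20.3% of all genes. Limma called 0 of the 10, and 7 had a probe set with an unadjusted p under 0.05, against 1464 of all 6765 genes. TWIST2, a basic helix-loop-helix factor of dermal fibroblasts, was -0.62 in PS24 and 1.56 in 30AC5, and 0.22 in iPF4-2 and -0.53 in iPSCs-w, against 3.21 in PEF and 2.15 in PAFSC. SNAI1, a repressor of epithelial genes, was between -0.21 and 0.06 in the iPS lines, against 1.19 in PEF and 1.93 in PAFSC. These are medians of 2 SNAI1 probe sets that disagreed in PEF. With 1 of them SNAI1 was 0.32 in PEF and 0.37 in iPF4-2, and with the other 2.07 and -0.26. NFIC, a nuclear factor of connective tissue, was 0.85 in PS24 and 0.33 in 30AC5, and -1.03 in iPF4-2 and -0.76 in iPSCs-w, against 1.41 in PEF and 2.38 in PAFSC. Like PRRX1 it was lower in both SSEA3/SSEA4-only lines. Without PRRX1, 7 of the other 9 factors had the higher mean in the SSEA1-labelled lines, against 46.7% of all genes. The same was so for 19 of 27 contractile genes and 16 of 23 matrix genes.

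The other measured genes of the S100 family did not have the S100A4 pattern. Of 21 listed S100 genes and annexins, the calcium-dependent membrane proteins that bind S100 partners, 12 were measured. In the iPS mean 4 were lower than in somatic cells and 8 higher, and 6 and 6 after quantile normalization. Of all genes, as deposited, 52.4% were lower and 10.9% were below both somatic samples in every line. S100A4 was the 1 of the 12 below both somatic samples in every line, and the 1 that limma called. The median was 0.34, and -0.17 against PEF. There 7 of the 12 were lower and 3 were below PEF in every line, against 38.3% and 20.3% of all genes. S100A11, a widely expressed family member, was -0.04 in PS24 and 0.40 in 30AC5, and -0.30 in iPF4-2 and -0.60 in iPSCs-w, against 1.04 in PEF and -3.14 in PAFSC.

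Some genes of the family differed between the marker classes instead, without passing the test. S100A14, an epithelial member, was -0.10 in PS24 and 0.10 in 30AC5, and 3.12 in iPF4-2 and 3.76 in iPSCs-w, against 0.24 in PEF and 2.27 in PAFSC. S100A1, known from heart muscle, was -0.56 in PS24 and 0.00 in 30AC5, and 1.71 in iPF4-2 and 1.82 in iPSCs-w, against -0.00 in PEF and 1.24 in PAFSC. Both were higher in the SSEA3/SSEA4-only lines. Such a separation was common, since 41.2% of all probe sets did not overlap between the classes in either direction. In 21% of all probe sets there was no overlap with the SSEA1-labelled lines higher. The higher mean was in the SSEA1-labelled lines for 8 of the 12 genes, against 46.7% of all genes.

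The label of fibroblast identity was checked against defining fibroblast genes, of which 10 of 12 were measured. In every iPS line 9 of the 10 were below PEF and 7 were below both somatic samples, against 20.3% and 10.9% of all genes. A value above 1 in an iPS line was found for 3 of the 10. The median of the 10 was between -0.49 and 0.14 in the iPS lines, against 2.13 in PEF and 1.62 in PAFSC. The 75th percentile of all probe sets was 1.74 on the PAFSC array and 0.18 on the PEF array, so the PAFSC median was not unusual for its array. LUM, the matrix proteoglycan lumican, was -0.44 in PS24 and -0.02 in 30AC5, and 3.77 in iPF4-2 and -0.69 in iPSCs-w, against 7.34 in PEF and 1.59 in PAFSC. iPF4-2, the highest iPS line for S100A4 and ACTA2, was thus also the highest for LUM, and above PAFSC. Of 30 listed matrix and surface genes 23 were measured, and all 23 had a lower iPS mean as deposited (22 after quantile normalization or with spreads made equal). Of all genes 52.4% had a lower iPS mean. Below both somatic samples in every line were 20 of the 23, with a median difference of -2.23, and -2.11 against PEF. Limma called 0 of the 23, and 18 had a probe set with an unadjusted p under 0.05, against 1464 of all 6765 genes. TNC, the matrix protein tenascin, was -0.33 in PS24 and 0.12 in 30AC5, and 1.36 in iPF4-2 and -1.55 in iPSCs-w, against 5.80 in PEF and 2.28 in PAFSC. Of the 23 genes 18 were lowest in iPSCs-w, against 26.9% of all genes, and 10 were highest in iPF4-2, against 20.3%.

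Of the defining smooth muscle genes 7 of 9 were measured, ACTA2 and CNN1 among them. Of the other 5, ACTG2, DES, MYL9, SMTN and TAGLN, 4 were below PEF in every iPS line, against 20.3% of all genes. As medians over probe sets 0 of the 5 had a value above 1 in any iPS line. On 1 of its 2 probe sets, however, ACTG2 was 1.26 in 30AC5, above its 0.98 in PEF. In PEF 4 of the 5 were above 1 and in PAFSC 2. DES, the muscle filament desmin, was between -0.05 and 0.23 in the iPS lines, against 1.31 in PEF and 1.58 in PAFSC. Markers of striated muscle had higher medians in the somatic samples. Of 19 measured skeletal and cardiac genes, 18 had a lower iPS mean (15 to 17 in the other scalings), against 52.4% of all genes as deposited. Their median on each array was -0.22 to 0.03 in the iPS lines, against 0.90 in PEF and 1.52 in PAFSC. On the PAFSC array the 75th percentile of all probe sets was 1.74, so a median of 1.52 was not unusual there. MYL1, a fast muscle myosin light chain, was 4.01 in PEF, and MYF5, a myogenic transcription factor, was 2.50 there, while 6 of the 19 were below 0 in PEF, the lowest being MYH7, a slow myosin, at -0.54. Against PEF alone 13 of the 19 had a lower iPS mean, against 38.3% of all genes. The part of muscle cells in the somatic values of ACTA2 and CNN1 was not tested.

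Most immune and all endothelial markers were above 1 in PAFSC, and except for the endothelial factor ERG at 3.62 they were near or below 0 in PEF. Over all probe sets the PAFSC array had a median of 0.70 and a 75th percentile of 1.74, so a value above 1 was common there. Of 9 immune genes 8 were between 1.55 and 2.99 in PAFSC. The exception was AIF1, a macrophage protein, with -1.63 in PS24 and -1.86 in 30AC5, and 3.87 in iPF4-2 and 3.74 in iPSCs-w, against -1.65 in PEF and -1.07 in PAFSC. The 9 genes had medians of -0.06 to 0.22 in the iPS lines, against -0.20 in PEF and 2.37 in PAFSC. The 10 endothelial genes had medians of -0.12 to 0.17 in the iPS lines, against -0.20 in PEF and 1.83 in PAFSC. The part of such cells in the PAFSC values of the 4 genes was not tested.

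Most epithelial and pluripotency markers were lower in the SSEA1-labelled lines. Of 13 epithelial genes 10 were lower in both of these lines than in both others. Of all probe sets 41.2% did not overlap between these classes in either direction, and this share includes the 21% with the SSEA1-labelled lines higher. MAL2, a membrane protein of epithelia, ran the other way, with 2.93 in PS24 and 2.82 in 30AC5, and -1.04 in iPF4-2 and -0.03 in iPSCs-w, against -0.47 in PEF and 0.76 in PAFSC. The junction genes OCLN and CLDN7 overlapped between the classes. The median of the 13 was -0.16 in PS24 and 0.60 in 30AC5, and 1.28 in iPF4-2 and 1.44 in iPSCs-w, against -0.47 in PEF and 0.30 in PAFSC. Of 5 measured pluripotency genes 5 had the lower mean in the SSEA1-labelled lines, while 46.7% of all genes had the higher mean there. The medians of the 5 were 0.04 in PS24 and -0.13 in 30AC5, and 1.26 in iPF4-2 and 1.93 in iPSCs-w. In PEF the median was -0.75 and in PAFSC 0.64. S100A4 and CNN1 did not separate the lines in this way, and ACTA2 was lowest in a line of each class.

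The genes beside the 4 on the chromosome were named from the RefSeq order of the pig assembly Sscrofa11.1, with up to 3 genes on each side. For S100A4, which lies among other S100 genes, 0 of the neighbours had a named probe set. Beside PRRX1, CEBPD, a transcription factor of fat cells and inflammation, was -0.18 in PS24 and 0.65 in 30AC5, and -1.16 in iPF4-2 and -0.51 in iPSCs-w, against 2.32 in PEF and 2.35 in PAFSC. It differed by -2.64, and by -2.62 against PEF alone. KIFAP3, a kinesin partner on the other side, differed by 0.67, but by -1.98 against PEF alone, since it was -3.30 in PAFSC. The measured neighbours of ACTA2 differed by 0.83 (STAMBPL1, a deubiquitinase), -0.62 (FAS, a death receptor), -0.25 (CH25H, an oxysterol enzyme) and 0.49 (LIPA, a lysosomal lipase). Those of CNN1 differed by -0.55 (ZNF653, a zinc finger protein), 0.66 (ECSIT, a mitochondrial and signalling adaptor), 0.75 (ELOF1, an elongation factor) and -0.13 (ACP5, an acid phosphatase). Against PEF alone the neighbours of ACTA2 differed by -0.58 to 0.56 and those of CNN1 by 0.15 to 1.26.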

How the data were processed

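Per the labels' protocols, biotin-labelled RNA of 6 samples was put on Affymetrix pig arrays. The deposited table holds values on a log2 scale for 24123 probe sets with 0 missing; the log base was taken as 2 from the range of the values. No source used here gives the software, background correction, normalization or baseline of the authors. Leaving out 124 array controls left 23999 probe sets, of which the platform annotation gave 1 symbol to 10069, several to 198 and none to 13732. Samples were grouped by the labels.

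Tests were run over all 23999 probe sets in limma 3.58.1 under R 4.3.3, with eBayes after lmFit, two-sided p-values and a Benjamini-Hochberg threshold of 0.05. iPS against somatic had 4 residual degrees of freedom. The SSEA1 comparison used 3 classes and 3 residual degrees of freedom. Residual SDs come from the first fit, so they contain the spread between the iPS lines whose steps are set beside them. A gene's value in a list is the median over its probe sets.

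Named were the 4 genes, up to 5 genes per list with the largest difference, any list gene past the threshold, and the 4 nearest genes per profile. List genes named beyond this rule (MYOCD, FHL2, TPM4, SYNM, S100A11, S100A14, S100A1, DES, MYH7, MYL9, SMTN and MAL2) were chosen after their values were seen. The 4 genes and the lists were chosen with earlier results of these data known. Alternatives were quantile normalization, median centring, equal spreads, a robust eBayes (statmod 1.5.0) or one with a trend, a floor at the 25th percentile, leaving out the 40% of probe sets with the lowest mean, other classes and leaving out arrays.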

Additional observations from a re-analysis of the deposited data

How the results depend on the processing

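The iPS minus somatic difference was below 0 under every alternative that gave a value, 15 for S100A4 (-5.67 to -3.33) and 14 each for PRRX1 (-6.18 to -3.18), ACTA2 (-6.47 to -2.44) and CNN1 (-5.48 to -3.02). The call of S100A4 was kept in 5 and lost in 10. It was lost after quantile normalization (-4.68, limma adjusted p = 0.146), median centring (-5.11, adjusted p = 0.0842), equal spreads (-3.33, adjusted p = 0.469), a trend in eBayes (-5.41, adjusted p = 0.184), 3 classes (-5.41, adjusted p = 0.0861), without any 1 iPS line, and without PAFSC and PS24 (-5.29, adjusted p = 0.114), a setting chosen after seeing the data. The cause was not tested. PRRX1 and CNN1 passed with a floor at the 25th percentile (-3.18, adjusted p = 0.0284, and -3.02, adjusted p = 0.0489), which sets nearly all low iPS values equal, and without PEF. ACTA2 passed in none of its 14. Leaving out 1 array gave -5.67 to -5.23 for S100A4, -6.18 to -4.73 for PRRX1, -6.47 to -4.87 for ACTA2 and -5.48 to -4.12 for CNN1.

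Of the 4 genes 1 was called as deposited, 0 under quantile normalization, centring, equal spreads, a trend, 3 classes and without PAFSC and PS24, 3 with the floor, and 0 to 3 with 1 array left out. Over all probe sets the count was 6, against 1 after centring, 0 with equal spreads, 2 with a trend, 35 with the filter, 70 with the floor, 0 with 3 classes, 0 without PAFSC and PS24, and 0 to 14303 with 1 array left out (136 without PAFSC, 14303 without PEF). The filter removed PRRX1, ACTA2 and CNN1, since it acts on relative values.

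In the SSEA1 comparison 0 genes were called as deposited and 1, PRRX1, after quantile normalization (3.50, adjusted p = 0.0381). Over all probe sets the 0 became 90 after quantile normalization, 30 with equal spreads, 44 with the filter, 4 with only the iPS lines, and 0 to 4 with 1 array left out. PRRX1 stayed above 0, from 0.00 with the floor to 4.23. Signs turned for CNN1 after quantile normalization (-0.064), for ACTA2 with the floor (0.0043) and for S100A4 without PAFSC and PS24 (0.091). With 1 array left out the ranges were -0.89 to 0.45 for S100A4, 3.01 to 4.23 for PRRX1, -3.61 to 0.89 for ACTA2 and -0.56 to 0.78 for CNN1. For PEF minus PAFSC, S100A4 turned to -0.30 after quantile normalization. Without PAFSC the list medians turned to -0.17 for S100 genes, 0.25 for endothelial and 0.28 for immune genes. No paired analysis was possible because the labels give no parent cells or other link between the samples.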
